A study of Rattus norvegicus with 9 samples.

Results

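Transcripts of 41 genes of glycolysis, its side branches and the hypoxia response were followed in rat bladder carcinoma, in the adjacent tissue and in normal bladder. The genes were listed by name, and a gene was measured where the array annotation gave it a probe set of its own, that is, one that names no other gene. This held for 40 of the 41 genes, with 63 probe sets in all, among 14217 genes and 31042 probe sets tested. Where a gene had more than 1 probe set (17 genes), the one with the highest mean over the 9 arrays stood for it. Pkm, which encodes muscle pyruvate kinase, shares its probe set with another gene and was not analysed here.

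The study profiled RNA of whole tissue pieces from female Sprague-Dawley (SD) rats, 10 weeks old per the labels, on 9 Affymetrix arrays. The first 3 arrays held bladder transitional cell carcinoma (BTCC) induced by N-methyl-N-nitrosourea (MNU, a DNA-alkylating carcinogen) given into the bladder at 20 mg/ml weekly for 10 weeks. Another 3 held adjacent normal tissue of the same 3 tumor-bearing rats, which had therefore received MNU as well, and the last 3 held bladders of 3 separate normal rats. The growth text attached to every sample describes the MNU treatment, so the statement that the last group was normal rests on its titles and on the series design. Values are MAS5 signals on the log2 scale, where 1 unit is a 2-fold difference, and a signal under 50 (log2 5.64) was treated as dim.

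Glycolysis turns glucose into pyruvate, and lactate dehydrogenase turns pyruvate into lactate when it does not enter mitochondria. Most steps are run by families of isoenzymes encoded by different genes, and the members of a family are typically favoured by different tissues: skeletal muscle, heart or fat has Slc2a4, Pfkm, Eno3 and Pygm, nervous tissue has Aldoc and Eno2, and Slc2a1, Hk2, Aldoa, Eno1 and Ldha are common in dividing cells. These sets are not exclusive, and Aldoa is also an isoform of muscle. The transcription factor HIF-1, whose alpha subunit is degraded in the presence of oxygen, raises many of these genes under hypoxia through DNA elements with the core ACGTG or GCGTG. A higher share of 1 isoform over another between tissues is called an isoform switch here, and it was measured as the ratio of 2 genes on the same array.

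The promoters of 4 genes are shown because they belong to glucose entry, a middle step, lactate formation and the hypoxia response and moved in different directions. Each is 300 bases of the RefSeq rat assembly GRCr8, from 250 before to 50 after the annotated start, read 5′ to 3′ on the strand of the gene, with each ACGTG or GCGTG, on either strand, in capitals. Slc2a1 (chr5:138002272-138002571, plus strand) and Ldha (chr1:106507842-106508141, plus strand) were higher in tumors than in normal bladder, whereas Aldoc (chr10:63715294-63715593, plus strand) and Bnip3 (chr1:203154913-203155212, minus strand) were lower.
Slc2a1: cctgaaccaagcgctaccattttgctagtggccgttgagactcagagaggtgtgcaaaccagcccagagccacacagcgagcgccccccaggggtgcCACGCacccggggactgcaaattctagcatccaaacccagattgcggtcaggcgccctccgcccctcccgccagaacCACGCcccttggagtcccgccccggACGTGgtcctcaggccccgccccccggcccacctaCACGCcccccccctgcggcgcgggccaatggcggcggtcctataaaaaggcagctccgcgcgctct
Ldha: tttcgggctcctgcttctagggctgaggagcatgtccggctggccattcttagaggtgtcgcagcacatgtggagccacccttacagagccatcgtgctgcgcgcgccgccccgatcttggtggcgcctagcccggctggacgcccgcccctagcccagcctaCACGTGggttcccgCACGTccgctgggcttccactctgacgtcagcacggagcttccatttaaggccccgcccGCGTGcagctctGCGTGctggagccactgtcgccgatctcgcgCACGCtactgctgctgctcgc
Aldoc: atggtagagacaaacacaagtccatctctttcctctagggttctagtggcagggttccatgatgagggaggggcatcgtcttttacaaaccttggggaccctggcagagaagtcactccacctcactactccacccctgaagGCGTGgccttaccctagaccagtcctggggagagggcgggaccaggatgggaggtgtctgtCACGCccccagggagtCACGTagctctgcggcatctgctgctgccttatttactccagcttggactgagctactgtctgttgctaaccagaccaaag
Bnip3: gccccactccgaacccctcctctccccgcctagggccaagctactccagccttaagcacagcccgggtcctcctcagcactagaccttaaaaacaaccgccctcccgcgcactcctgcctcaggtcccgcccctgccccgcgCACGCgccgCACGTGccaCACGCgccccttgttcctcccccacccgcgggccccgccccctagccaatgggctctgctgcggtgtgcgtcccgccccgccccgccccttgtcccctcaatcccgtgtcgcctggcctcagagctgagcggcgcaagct
The windows hold 4, 6, 3 and 4 matches in the order shown, with overlapping matches counted separately, since the palindrome CACGTG holds the core on both strands. In Slc2a1 they start at -153, -76, -51 and -16 bases from the annotated start, and in Aldoc at -108, -47 and -31. A window with at least 1 match was found for 24 of 40 promoters of 36 of the 41 genes (60%), beside 13937 of 33469 promoters of the table (41.6%). Among genes with a promoter in the table, 9 of 14 that were higher in tumors than in normal bladder had a match, as did 5 of 6 lower genes and 9 of 15 genes that were not called. Counted by gene, 12253 of 27457 genes of the table had a match (44.6%). The higher genes Adm, Hk2, Pgd, Tkt and Tpi1 had none, unlike the 4 genes shown. A match is a string of letters and not a measured binding site.

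The arrays were scaled to the same trimmed mean, and their median log2 signals lay between 6.87 and 7.23. Normal bladders were alike (Pearson's r of 0.940 to 0.946 across probe sets), tumors reached 0.899 to 0.931 among themselves, and tumors against adjacent tissues reached 0.897 to 0.930. The pieces differed in muscle. Summed over 12 of 12 smooth muscle markers, the tumors carried 64.7%, 2.23% and 2.47% and the adjacent tissues 30.0%, 8.59% and 3.93% of the mean of the normal bladders. Tumor 1 thus stood apart, and counts without it are given beside those with it. In pieces of whole tissue, fewer cells of a type and less RNA per cell cannot be told apart.

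Compared with normal bladder, 16 of the 40 genes were higher and 8 were lower in tumors at an adjusted p under 0.05 (limma), and 16 were not called. These shares, 40% higher and 20% lower, stand beside 13.6% and 9.95% of all 14217 genes. The median change was 0.26 on the log2 scale against 0.05 over all genes. Called genes that were higher included Slc2a1, Pfkfb3, Pgk1, Eno1, Ldha, Pgd and Tkt, and those that were lower included Slc2a4, Aldoc, Eno3, Pfkp and Pygm. Without tumor 1, 19 genes were higher and 10 lower, and all 24 genes called with the 3 tumors were among them. Without it, 20.4% of all genes were higher and 17.5% lower. Fewer were called without normal bladder 1, 2 or 3, namely 7, 7 and 8 higher and 0 lower each time (4.11% to 4.77% of all genes higher and 2.23% to 2.51% lower). Without tumor 2 or 3 the lower genes numbered 5 and 4, beside 6.71% and 4.94% of all genes. Over all genes, 57.7% of the calls were higher (1927 against 1414 lower), and 69.7% were higher when each array was centred on its median (2504 against 1090).

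In adjacent tissue, 9 of the 40 genes were higher and 9 lower than in normal bladder, 22.5% each way, beside 13.3% and 11.5% of all genes. The median change was -0.08, against 0.01 over all genes. Of the calls over all genes, 53.7% were higher (1895 against 1636 lower), or 69.7% with arrays centred on their medians (3012 against 1308). With that centring 16 of the 40 genes were higher, beside 21.2% of all genes. Without any 1 normal bladder, 3 genes were higher and 7 lower (5.96% to 6.48% and 5.66% to 5.76% of all genes). Both comparisons use the same 3 normal bladders, so their values are not independent of each other.

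**Figure D1:**
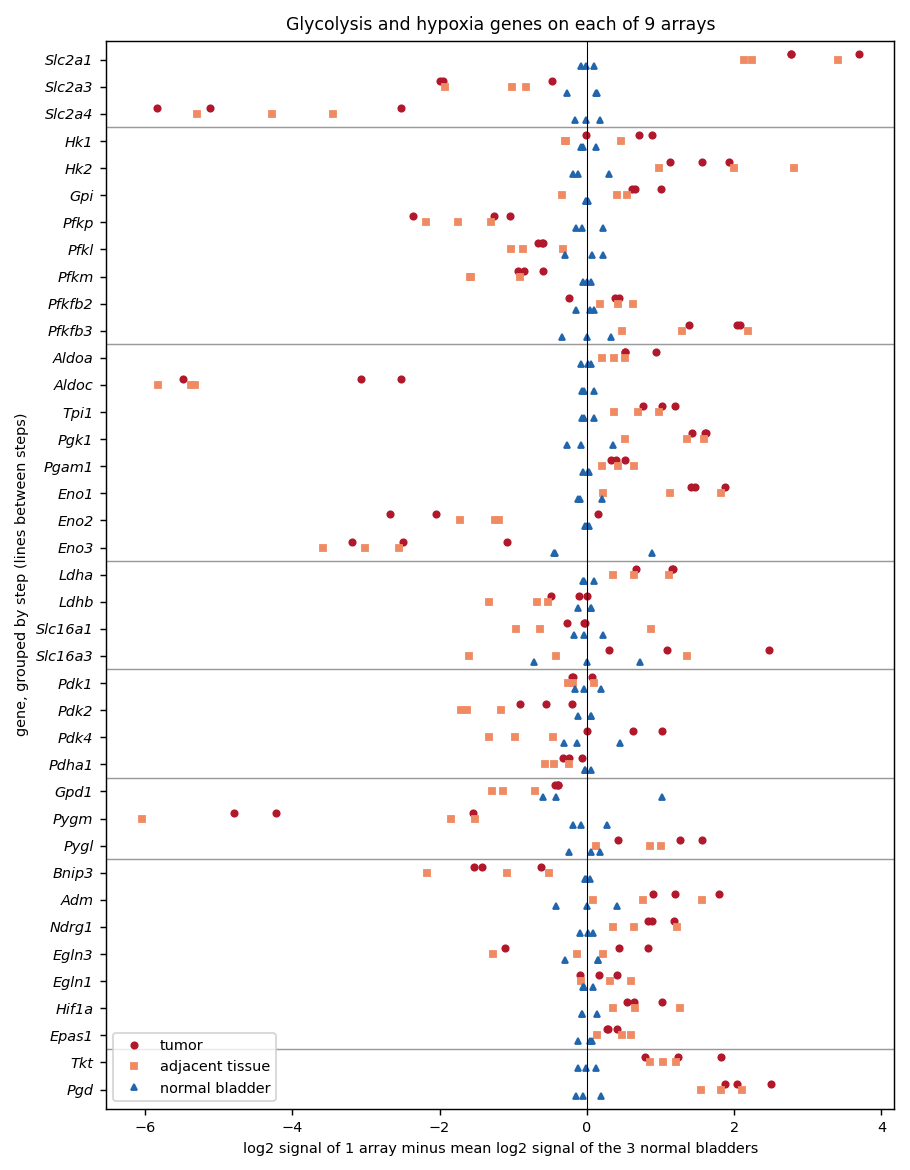
Log2 signal of each array minus the mean log2 signal of the 3 normal bladders (x axis) for 39 genes (y axis, grouped by step), with 1 point per array for tumors, adjacent tissues and normal bladders. Slc2a1, Pgd and Pgk1 lie right of 0 on all 6 arrays of tumor-bearing rats, and Slc2a4, Aldoc and Pygm lie left of it on all 6. Pgam2, dim on all 9 arrays, is not drawn.

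The glucose transporters moved in opposite directions. Slc2a1, which encodes the widespread transporter GLUT1, reached 11.93, 12.85 and 11.93 on the log2 scale in the tumors, 11.29, 11.40 and 12.57 in the adjacent tissues and 9.08, 9.14 and 9.25 in the normal bladders. All 6 arrays of tumor-bearing rats lay above all normal bladders, at 684, 1.29e+03 and 683% of the normal mean in tumors and 437, 474 and 1.06e+03% in adjacent tissues. The difference from normal bladder was 3.08 ± 0.25 (SE, adjusted p = 0.00181) for tumors and 2.60 ± 0.32 (SE, adjusted p = 0.00203) for adjacent tissues. Both calls held without any single array.

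Slc2a4, the insulin-responsive transporter GLUT4 of muscle and fat, measured 8.02, 5.43 and 4.70 on the log2 scale in the tumors, 7.10, 6.27 and 5.25 in the adjacent tissues and 10.52, 10.38 and 10.71 in the normal bladders. The normal bladders were the highest 3 arrays, tumor 1 was the highest of the other 6, and tumors 2 and 3 and adjacent tissue 3 were dim. The change was -4.49 ± 0.77 (SE, adjusted p = 0.0112) in tumors and -4.33 ± 0.42 (SE, adjusted p = 0.00094) in adjacent tissues. Its second probe set gave 7.31, 2.25 and 5.58 in tumors, 7.08, 5.46 and 6.08 in adjacent tissues and 9.02, 9.01 and 8.88 in normal bladders, with the same order of groups. Slc2a3, the high-affinity transporter GLUT3 of neurons, was 8.68, 7.16 and 7.21 on the log2 scale in the tumors, 8.14, 7.23 and 8.33 in the adjacent tissues and 9.29, 8.89 and 9.28 in the normal bladders. Tumors 2 and 3 and adjacent tissue 2 were the lowest, and no array of either group reached the normal bladders. It changed by -1.48 ± 0.41 (SE, adjusted p = 0.0474) in tumors and by -1.26 ± 0.30 (SE, adjusted p = 0.0242) in adjacent tissues. In tumors, Slc2a3 was no longer called when tumor 2, tumor 3 or any 1 normal bladder was left out (adjusted p up to 0.147), and neither was Slc2a4 without any 1 normal bladder (up to 0.0557). With a second, dim probe set averaged in, Slc2a3 was not called in tumors (-1.37, adjusted p = 0.0837). In adjacent tissue the call of Slc2a3 was lost without any 1 normal bladder (up to 0.1).

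Hexokinases trap glucose as glucose 6-phosphate. Hk2, the inducible isoform, measured 6.37, 7.17 and 6.80 on the log2 scale in the tumors, 6.22, 7.24 and 8.05 in the adjacent tissues and 5.05, 5.55 and 5.12 in the normal bladders. It was dim on all 3 normal bladders, so that tumors were at least 2.2-fold and adjacent tissues at least 2.88-fold higher (fitted log2 changes 1.54 ± 0.35 (SE, adjusted p = 0.0252) and 1.93 ± 0.49 (SE, adjusted p = 0.0296)). Hk1, the isoform of most resting tissues, was 10.07 ± 0.48 in tumors, 9.51 ± 0.44 in adjacent tissues and 9.55 ± 0.11 in normal bladders (SD, n = 3 each) and was not called (adjusted p = 0.174 and 0.929). Gpi, the isomerase of the next step, was 11.75, 12.14 and 11.79 on the log2 scale in the tumors, 10.80, 11.55 and 11.70 in the adjacent tissues and 11.13, 11.14 and 11.16 in the normal bladders. Its change was 0.75 ± 0.13 (SE, adjusted p = 0.0121) in tumors, all of them above the normal bladders, and 0.21 ± 0.22 (SE, adjusted p = 0.584) in adjacent tissues, of which 1 lay below.

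Phosphofructokinase commits sugar to glycolysis, and all 3 of its genes had a lower mean in tumor-bearing rats. Pfkp, the platelet isoform, measured 11.90, 11.68 and 10.58 on the log2 scale in the tumors, 11.20, 10.76 and 11.65 in the adjacent tissues and 12.87, 12.80 and 13.16 in the normal bladders. Tumor 3 was the lowest of the 9 arrays. The change was -1.56 ± 0.33 (SE, adjusted p = 0.0213) in tumors and -1.75 ± 0.23 (SE, adjusted p = 0.00244) in adjacent tissues. Pfkm, the muscle isoform, was 8.59, 8.85 and 8.51 on the log2 scale in the tumors, 7.87, 8.54 and 7.86 in the adjacent tissues and 9.39, 9.49 and 9.45 in the normal bladders, and the groups of either comparison did not overlap. It fell by 0.79 ± 0.14 in tumors (adjusted p = 0.0128) and by 1.36 ± 0.22 in adjacent tissues (adjusted p = 0.00532). With its 3 probe sets averaged, Pfkm was not called at -0.52 in tumors (adjusted p = 0.236) and -1.47 in adjacent tissues (adjusted p = 0.0662), nor in tumors after median centring of the arrays, at -0.59 (adjusted p = 0.062). Pfkl, the liver isoform, was not called, with differences of -0.62 ± 0.25 (SE, adjusted p = 0.13) and -0.74 ± 0.31 (SE, adjusted p = 0.148).

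Pfkfb3 encodes the kinase-rich bifunctional enzyme whose product activates phosphofructokinase. It measured 8.95, 9.61 and 9.65 on the log2 scale in the tumors, 8.86, 8.04 and 9.75 in the adjacent tissues and 7.57, 7.23 and 7.89 in the normal bladders. Every tumor and every adjacent tissue lay above the normal bladders. The change in tumors was 1.84 ± 0.26 (SE, adjusted p = 0.00661) and held without any single array, whereas adjacent tissues differed by 1.32 ± 0.41 (SE, adjusted p = 0.0619) and were not called. Its other 2 probe sets were dim on all 9 arrays, and with the 3 averaged Pfkfb3 differed by 0.46 in tumors and was not called (adjusted p = 0.407). Pfkfb2, the heart form, differed by 0.19 ± 0.22 (SE, adjusted p = 0.599) in tumors and 0.41 ± 0.19 (SE, adjusted p = 0.182) in adjacent tissues. Among the hexose phosphate steps in tumors, the calls of Gpi, Pfkp and Pfkm were lost without any 1 normal bladder (adjusted p up to 0.0611, 0.0871 and 0.0667), and that of Hk2 also without tumor 2 or 3 (up to 0.0892). In adjacent tissue only Hk2 lost its call, without adjacent tissue 2, adjacent tissue 3 or any 1 normal bladder (up to 0.103).

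**Figure D2:**
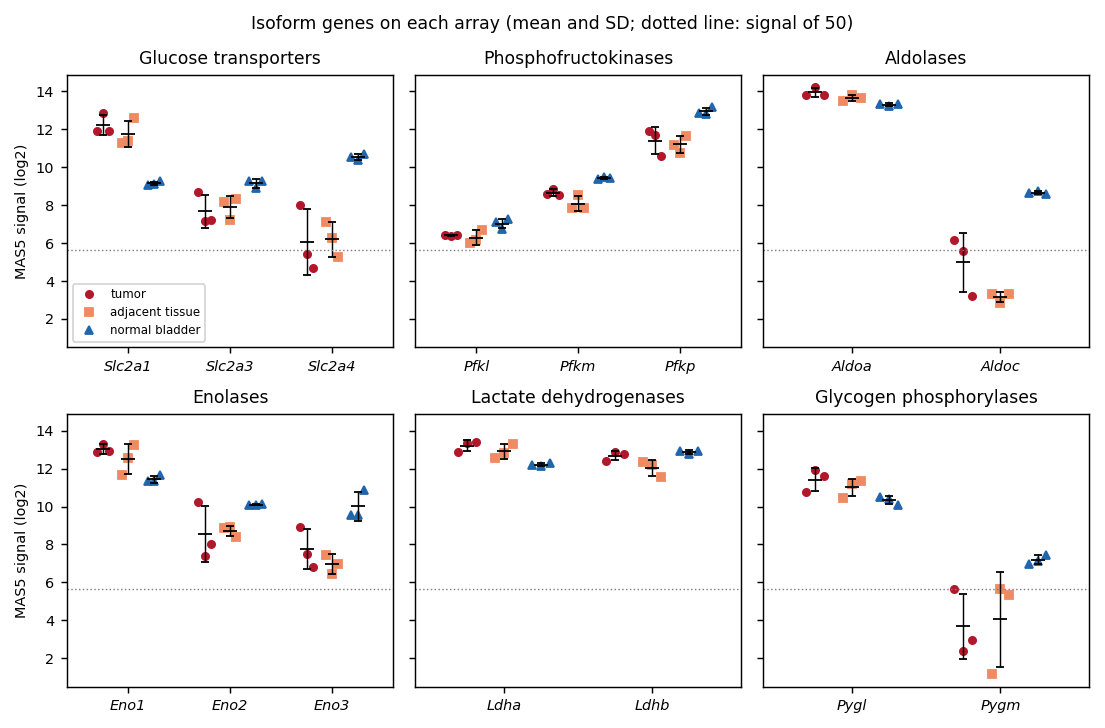
MAS5 signals (log2, y axis) of the isoform genes of 6 families on each array, with the mean and SD of the 3 tumors, 3 adjacent tissues and 3 normal bladders of each gene, in that order from left to right. The dotted line marks a signal of 50. Slc2a1, Aldoa, Eno1, Ldha and Pygl have higher means in tumors than in normal bladder, and Slc2a4, Aldoc, Eno3 and Pygm have lower ones.

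Aldolase splits fructose bisphosphate into 2 trioses. Aldoa, the isoform of muscle and most proliferating cells, reached 13.81, 14.23 and 13.81 on the log2 scale in the tumors, 13.50, 13.81 and 13.66 in the adjacent tissues and 13.31, 13.22 and 13.35 in the normal bladders. All tumors lay above all adjacent tissues, although tumors 1 and 3 and adjacent tissue 2 are equal at 2 decimals, and all adjacent tissues lay above all normal bladders. The difference from normal bladder was 0.66 ± 0.15 (SE, adjusted p = 0.026) in tumors and 0.36 ± 0.12 (SE, adjusted p = 0.0804) in adjacent tissues. Aldoc, the brain isoform, was 6.15, 5.598 and 3.19 on the log2 scale in the tumors, 3.29, 2.85 and 3.34 in the adjacent tissues and 8.63, 8.76 and 8.60 in the normal bladders. The 3 adjacent tissues and tumors 2 and 3 were dim. Adjacent tissue was therefore at least 8.12-fold lower than normal bladder (fitted log2 change -5.50 ± 0.33 (SE, adjusted p = 0.000271)), and tumors changed by -3.69 ± 0.71 (SE, adjusted p = 0.0158).

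The enzymes that interconvert trioses and make the first ATP were higher. Tpi1, triosephosphate isomerase, was 12.11, 12.55 and 12.37 on the log2 scale in the tumors, 11.72, 12.05 and 12.33 in the adjacent tissues and 11.29, 11.32 and 11.45 in the normal bladders. It rose by 0.99 ± 0.14 in tumors (adjusted p = 0.00674) and 0.68 ± 0.17 in adjacent tissues (adjusted p = 0.0264). Pgk1, phosphoglycerate kinase, was 13.70, 13.90 and 13.89 on the log2 scale in the tumors, 13.63, 12.80 and 13.87 in the adjacent tissues and 12.20, 12.01 and 12.63 in the normal bladders. All tumors and adjacent tissues lay above the normal bladders, and adjacent tissue 2 was the lowest array of tumor-bearing rats. Its change was 1.55 ± 0.17 (SE, adjusted p = 0.00367) in tumors and 1.16 ± 0.29 (SE, adjusted p = 0.0276) in adjacent tissues, and a second probe set gave 12.60, 13.37 and 12.81 in tumors, 12.53, 12.33 and 12.92 in adjacent tissues and 11.56, 11.64 and 11.98 in normal bladders. With another probe set, dim on all arrays, averaged in as well, Pgk1 was not called, at 1.07 (adjusted p = 0.0751) and 0.56 (adjusted p = 0.256). Pgam1, phosphoglycerate mutase, differed by 0.42 ± 0.11 (SE, adjusted p = 0.0394) in tumors and 0.43 ± 0.14 (SE, adjusted p = 0.0664) in adjacent tissues. The tumor call was lost after quantile normalization (adjusted p = 0.0548) or median centring (adjusted p = 0.0528). Its muscle counterpart Pgam2 was dim on all 9 arrays and has no fold here.

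Enolase makes phosphoenolpyruvate, and its 3 genes did not move together. Eno1, the isoform of most tissues, reached 12.85, 13.32 and 12.92 on the log2 scale in the tumors, 11.67, 12.57 and 13.27 in the adjacent tissues and 11.36, 11.33 and 11.65 in the normal bladders. All 6 arrays of tumor-bearing rats lay above the normal bladders, with adjacent tissue 1 the nearest to them. Its change was 1.59 ± 0.16 (SE, adjusted p = 0.00305) in tumors, and adjacent tissues differed by 1.06 ± 0.35 (SE, adjusted p = 0.0767). Eno2, the neuronal isoform, was 10.24, 7.42 and 8.05 on the log2 scale in the tumors, 8.85, 8.90 and 8.38 in the adjacent tissues and 10.07, 10.09 and 10.13 in the normal bladders. Tumor 1 was above the normal bladders and tumors 2 and 3 were the lowest of all arrays. Eno2 was called in adjacent tissues, at -1.39 ± 0.18 (SE, adjusted p = 0.0023), and not in tumors, at -1.53 ± 0.65 (SE, adjusted p = 0.152). Without tumor 1 the change in tumors was -2.36 with an adjusted p of 0.000121. Eno3, the muscle isoform, was 8.91, 7.51 and 6.82 on the log2 scale in the tumors, 7.46, 6.42 and 6.98 in the adjacent tissues and 9.57, 9.55 and 10.89 in the normal bladders. It changed by -2.25 ± 0.58 (SE, adjusted p = 0.0375) in tumors and -3.05 ± 0.41 (SE, adjusted p = 0.00282) in adjacent tissues.

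Of these triose phosphate genes, the tumor calls of Tpi1, Pgk1 and Eno1 held without any single array. In tumors, those of Aldoa and Aldoc were lost without any 1 normal bladder (adjusted p up to 0.108 and 0.0693), Aldoa also without tumor 3, and those of Pgam1 and Eno3 without tumor 2, tumor 3 or any 1 normal bladder (up to 0.151 and 0.122). In adjacent tissue, Aldoc, Eno2 and Eno3 held throughout, whereas Tpi1 was lost without adjacent tissue 2 or any 1 normal bladder (up to 0.108) and Pgk1 without adjacent tissue 1 or 3 or any 1 normal bladder (up to 0.109). In all, 5 of 9 triose phosphate genes were higher and 2 lower in tumors, and 2 were higher and 3 lower in adjacent tissue. Of all genes, 13.6% were higher and 9.95% lower in tumors, and 13.3% and 11.5% in adjacent tissue.

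Lactate dehydrogenase is a tetramer of A subunits, which favour lactate formation, and B subunits, which favour its oxidation. Ldha was 12.88, 13.37 and 13.38 on the log2 scale in the tumors, 12.57, 12.85 and 13.32 in the adjacent tissues and 12.17, 12.16 and 12.30 in the normal bladders. Ldhb was 12.40, 12.88 and 12.78 on the log2 scale in the tumors, 12.35, 12.21 and 11.55 in the adjacent tissues and 12.94, 12.76 and 12.94 in the normal bladders. Ldha lay above the normal bladders on all 6 arrays, while Ldhb overlapped with them in tumors and lay below them in adjacent tissues. Ldha changed by 1.002 ± 0.16 (SE, adjusted p = 0.00943) in tumors and 0.70 ± 0.19 (SE, adjusted p = 0.0383) in adjacent tissues. Ldhb fell by 0.84 ± 0.21 in adjacent tissues (adjusted p = 0.0272) and was not called in tumors, at -0.19 ± 0.15 (SE, adjusted p = 0.432). The Ldha call in tumors was lost without normal bladder 1 or 2 (adjusted p up to 0.0524), and in adjacent tissue Ldha was lost without adjacent tissue 2 or any 1 normal bladder (up to 0.132) and Ldhb without any 1 normal bladder (up to 0.103).

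Neither lactate carrier was called. Slc16a1 (MCT1, importer and exporter) was 10.51 ± 0.14 in tumors, 10.37 ± 0.98 in adjacent tissues and 10.62 ± 0.19 in normal bladders (SD, n = 3 each). Slc16a3 (MCT4, the exporter of glycolytic cells) was 8.25, 10.42 and 9.04 on the log2 scale in the tumors, 7.54, 6.35 and 9.31 in the adjacent tissues and 7.95, 7.23 and 8.68 in the normal bladders. Tumor 2 was the highest array and adjacent tissue 2 the lowest, and the groups overlapped. The difference of Slc16a3 between tumors and normal bladders was 1.28 ± 0.58 (SE, adjusted p = 0.177), and without tumor 1 it was 1.78 with an adjusted p of 0.0316.

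Pyruvate dehydrogenase opens the mitochondrial route, and its kinases close it. Pdk2 was 8.45, 7.75 and 8.11 on the log2 scale in the tumors, 6.95, 7.495 and 7.03 in the adjacent tissues and 8.71, 8.54 and 8.71 in the normal bladders. The adjacent tissues were the lowest 3 arrays and the tumors lay between them and the normal bladders. It changed by -1.50 ± 0.22 (SE, adjusted p = 0.0038) in adjacent tissues, a call that held without any single array, and differed by -0.56 ± 0.21 (SE, adjusted p = 0.111) in tumors. Pdk4, the kinase raised by fasting and fatty acids, was 10.15, 11.16 and 10.77 on the log2 scale in the tumors, 9.17, 9.69 and 8.81 in the adjacent tissues and 9.83, 10.01 and 10.59 in the normal bladders. Tumors overlapped with normal bladders, at 0.55 ± 0.30 (SE, adjusted p = 0.248), and adjacent tissues lay below them at -0.92 ± 0.27 (SE, adjusted p = 0.0527). Without tumor 1, Pdk2 differed in tumors by -0.73 (adjusted p = 0.018) and Pdk4 by 0.82 (adjusted p = 0.0323). Pdk1, a HIF-1 target, lay between 9.01 and 9.46 on all 9 arrays, and Pdha1, the enzyme's E1 alpha subunit, differed by -0.21 ± 0.11 (SE, adjusted p = 0.242) and -0.42 ± 0.12 (SE, adjusted p = 0.0515).

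Glycogen phosphorylase releases glucose units from glycogen. Pygm, the muscle isoform, was 5.64, 2.40 and 2.98 on the log2 scale in the tumors, 1.15, 5.67 and 5.34 in the adjacent tissues and 6.995, 7.11 and 7.46 in the normal bladders. It was dim on all 3 tumors, although tumor 1 was at the limit, and on 2 of 3 adjacent tissues. Tumors were at least 2.92-fold lower than normal bladder (fitted log2 change -3.52 ± 0.82 (SE, adjusted p = 0.0283)), and adjacent tissues differed by -3.14 ± 1.10 (SE, adjusted p = 0.0879). Pygl, the liver isoform, was 10.76, 11.90 and 11.61 on the log2 scale in the tumors, 10.47, 11.19 and 11.35 in the adjacent tissues and 10.52, 10.40 and 10.10 in the normal bladders, with all tumors above the normal bladders. It rose by 1.08 ± 0.29 in tumors (adjusted p = 0.0421) and differed by 0.66 ± 0.24 (SE, adjusted p = 0.0967) in adjacent tissues. Both tumor calls were lost without tumor 2, tumor 3 or any 1 normal bladder (adjusted p up to 0.105 for Pygm and 0.143 for Pygl). Gpd1, the cytosolic glycerol phosphate dehydrogenase, was not called, at -0.41 ± 0.43 (SE, adjusted p = 0.561) and -1.05 ± 0.46 (SE, adjusted p = 0.159).

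Known HIF-1 targets did not move as a block. Adm, the vasodilator peptide adrenomedullin, was 8.68, 8.98 and 9.57 on the log2 scale in the tumors, 7.87, 8.54 and 9.35 in the adjacent tissues and 7.79, 7.36 and 8.20 in the normal bladders, and all tumors lay above all normal bladders. Bnip3, a mitophagy receptor that HIF-1 raises in many cell types, was 9.63, 8.83 and 8.72 on the log2 scale in the tumors, 9.74, 9.17 and 8.08 in the adjacent tissues and 10.29, 10.23 and 10.25 in the normal bladders, with every array of tumor-bearing rats below the normal bladders. Ndrg1, a differentiation and stress protein that hypoxia raises, was 12.59, 12.30 and 12.23 on the log2 scale in the tumors, 12.05, 11.76 and 12.64 in the adjacent tissues and 11.31, 11.49 and 11.43 in the normal bladders, and did not overlap with normal bladder either. In tumors, Adm changed by 1.29 ± 0.30 (SE, adjusted p = 0.0273), Bnip3 by -1.19 ± 0.24 (SE, adjusted p = 0.0179) and Ndrg1 by 0.96 ± 0.13 (SE, adjusted p = 0.00605). In adjacent tissues, Ndrg1 was called at 0.74 ± 0.21 (SE, adjusted p = 0.0486), whereas Bnip3 differed by -1.26 ± 0.37 (SE, adjusted p = 0.0502) and Adm by 0.80 ± 0.39 (SE, adjusted p = 0.199). The second probe set of Ndrg1 gave 7.27, 7.03 and 7.78 in tumors, 6.27, 6.99 and 7.85 in adjacent tissues and 3.65, 6.90 and 6.82 in normal bladders, and with both averaged Ndrg1 was not called, at 1.26 in tumors and 0.99 in adjacent tissues (adjusted p = 0.0929 and 0.205).

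Among the HIF subunits, Hif1a, the alpha subunit of HIF-1, was 13.08, 13.56 and 13.18 on the log2 scale in the tumors, 13.19, 12.90 and 13.79 in the adjacent tissues and 12.46, 12.67 and 12.47 in the normal bladders, higher on all 6 arrays of tumor-bearing rats than on the normal bladders. Its change was 0.74 ± 0.15 (SE, adjusted p = 0.02) in tumors and 0.76 ± 0.22 (SE, adjusted p = 0.0482) in adjacent tissues. This is transcript, whereas HIF-1 is controlled mainly through the stability of the protein, which was not measured. Epas1, the alpha subunit of HIF-2, differed by 0.32 ± 0.11 (SE, adjusted p = 0.0872) and 0.40 ± 0.15 (SE, adjusted p = 0.104). The prolyl hydroxylases Egln1 and Egln3, which mark HIF for degradation, were not called (adjusted p = 0.523 and 0.958 in tumors, 0.362 and 0.519 in adjacent tissues). Without tumor 1, Egln3 differed in tumors by 0.63 with an adjusted p of 0.0446. Of the tumor calls, Ndrg1 held without any single array, while Bnip3 and Hif1a were lost without tumor 3 or any 1 normal bladder (up to 0.0749 and 0.0866) and Adm also without tumor 2 (up to 0.0974). In adjacent tissue, Ndrg1 and Hif1a were lost without adjacent tissue 1 or any 1 normal bladder (up to 0.161 and 0.155).

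Both pentose phosphate genes were higher. This branch makes NADPH and ribose for nucleotides. Pgd, phosphogluconate dehydrogenase, was 12.40, 12.86 and 12.24 on the log2 scale in the tumors, 12.19, 11.92 and 12.47 in the adjacent tissues and 10.57, 10.32 and 10.22 in the normal bladders. Tkt, transketolase, was 13.25, 13.84 and 12.81 on the log2 scale in the tumors, 12.88, 13.22 and 13.05 in the adjacent tissues and 12.14, 11.90 and 12.001 in the normal bladders. In neither gene did an array of tumor-bearing rats reach down to the normal bladders. Pgd rose by 2.13 ± 0.19 in tumors (adjusted p = 0.00212) and by 1.82 ± 0.17 in adjacent tissues (adjusted p = 0.00089), and Tkt by 1.29 ± 0.25 (adjusted p = 0.0158) and 1.04 ± 0.13 (adjusted p = 0.00242). The Tkt call in tumors was lost without any 1 normal bladder (up to 0.0722), and the other 3 calls held without any single array.

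For isoform switches, the log2 ratio of 2 genes of a family was taken on each array. Only the change of a ratio between groups is read, since 2 probe sets cannot be compared in level. Of 17 pairs, 16 had both genes measurable. In 10 of 16 pairs the tumors did not overlap with the normal bladders, each time toward the first gene of the pair, and in adjacent tissue this was so for 9 of 16. The pairs were chosen with earlier results of these data known, so a shared direction can follow from their order and is not a separate result. Single genes failed to overlap with normal bladder in tumors in 25.7% (higher) and 20.1% (lower) of all 14217 genes, and in adjacent tissue in 24.8% and 21.9%. No such share was computed for ratios, some of which have a gene in common, so the counts and these shares are unlike measures. With 3 arrays against 3, an exact two-sided permutation test cannot go below p = 0.1, which each of these pairs reached (adjusted p = 0.16 in tumors and 0.178 in adjacent tissue over the 16 pairs), so no pair can pass the threshold. Without tumor 1, 14 pairs did not overlap, a count that leaving out an array can only keep or raise.

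The ratio of Slc2a1 to Slc2a4 was 3.91, 7.42 and 7.23 in tumors, 4.19, 5.14 and 7.32 in adjacent tissues and -1.44, -1.24 and -1.46 in normal bladders. Tumor 1 and adjacent tissue 1 were the nearest to normal bladder. The difference from normal bladder was 7.57 ± 1.14 (SE) in tumors and 6.93 ± 0.93 in adjacent tissues. Against Slc2a3 it was 4.55 ± 0.72 and 3.85 ± 0.38. The enolases also separated from normal bladder, and Eno1 to Eno3 differed by 3.84 ± 0.76 in tumors and 4.10 ± 0.75 in adjacent tissues and Eno1 to Eno2 by 3.11 ± 0.98 and 2.44 ± 0.61. For the Aldoa to Aldoc ratio and the Pygl to Pygm ratio the size is not fixed, since Aldoc was dim on 2 tumors and on all adjacent tissues and Pygm on all tumors and 2 adjacent tissues. The Aldoa/Aldoc ratio differed by 4.34 in tumors and 5.87 in adjacent tissues as deposited, and by 3.01 and 3.31 with 50 added to each signal. The Pygl/Pygm ratio differed by 4.60 and 3.80 as deposited, and by 2.58 and 1.97 with 50 added.

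The lactate dehydrogenase pair was close among the tumors. The ratio of Ldha to Ldhb was 0.48, 0.49 and 0.60 in tumors, 0.21, 0.64 and 1.77 in adjacent tissues and -0.77, -0.61 and -0.64 in normal bladders. Every array of tumor-bearing rats lay above the normal bladders, and adjacent tissue 3 was the highest. The ratio differed by 1.20 ± 0.06 in tumors and 1.55 ± 0.47 in adjacent tissues. The size of the Hk2/Hk1 ratio is not fixed either, since Hk2 was dim on all 3 normal bladders. It differed by 1.02 in tumors and 1.97 in adjacent tissues as deposited, and by 0.37 and 1.21 with 50 added. Pfkfb3 to Pfkfb2 differed by 1.65 ± 0.26 in tumors without overlap (0.17 in the Pfkfb3/Pfkfb2 ratio with the probe sets of each gene averaged) and by 0.91 ± 0.68 with overlap in adjacent tissues. Hif1a to Epas1 differed by 0.42 ± 0.19 in tumors without overlap, and by 0.36 ± 0.23 with overlap in adjacent tissues.

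No such separation from normal bladder was seen in tumors for the phosphofructokinases, where Pfkl to Pfkm differed by 0.17 ± 0.21 and Pfkp to Pfkm by -0.77 ± 0.38. The same held for the lactate carriers Slc16a1 to Slc16a3 (-1.39 ± 0.87), for Pdk1 to Pdk2 (0.45 ± 0.27), for Pdk1 to Pdk4 (-0.66 ± 0.42) and for Egln3 to Egln1 (-0.11 ± 0.48). In adjacent tissues, Pdk1 to Pdk2 differed by 1.38 ± 0.29 without overlap.

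**Figure D3:**
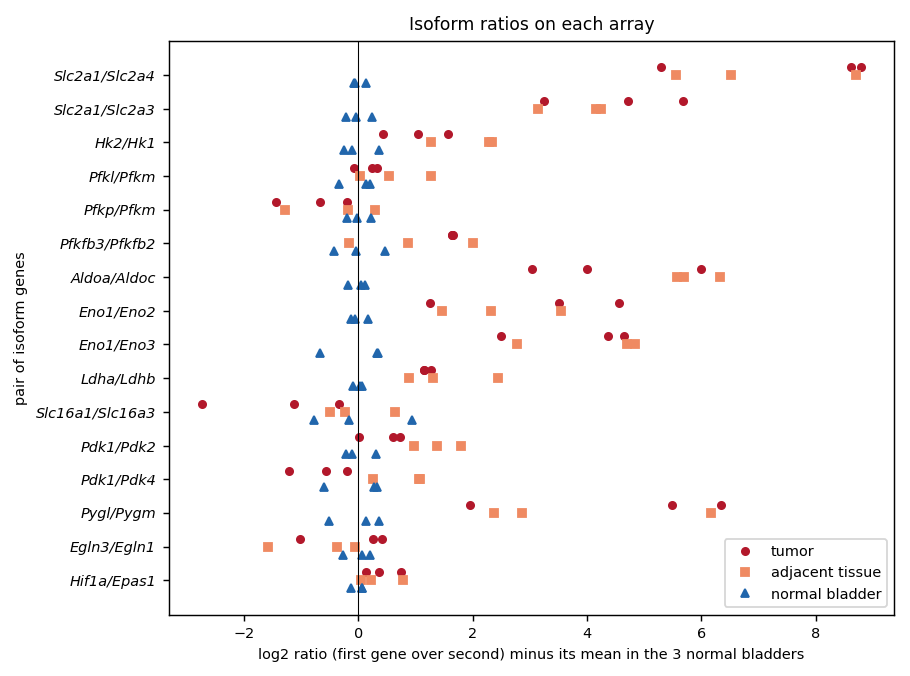
Log2 ratio of 2 isoform genes on each array minus its mean in the 3 normal bladders (x axis) for 16 pairs (y axis), with 1 point per array for tumors, adjacent tissues and normal bladders. The Slc2a1 to Slc2a4 ratios of tumors and adjacent tissues lie right of all normal bladders, and the phosphofructokinase ratios overlap with it in tumors.

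Muscle marker signals were also lower in tumors and adjacent tissues. As a percentage of the mean of normal bladders, Slc2a4 stood at 17.5, 2.89 and 1.75% in the tumors and 9.22, 5.18 and 2.56% in the adjacent tissues (dim in tumors 2 and 3 and adjacent tissue 3), Eno2 at 111, 15.6 and 24.2% and 42.3, 43.5 and 30.4%, and Eno3 at 47, 17.8 and 11% and 17.1, 8.38 and 12.3%. The sum of the 12 smooth muscle markers ranged from 3039 to 88177 in tumors, from 5355 to 40896 in adjacent tissues and from 133421 to 141047 in normal bladders, and none of the markers was dim on all arrays. By limma, 7 of the 12 were lower in tumors than in normal bladder and all 12 in adjacent tissue, beside 9.95% and 11.5% of all genes. Tumor 1, with the most smooth muscle signal of its group, was also the highest tumor for Slc2a4, Slc2a3, Aldoc, Eno2, Eno3, Pfkp and Bnip3. Among the adjacent tissues the order differed by gene. Slc2a4, Eno3 and Bnip3 were highest in adjacent tissue 1, which had the most smooth muscle signal of its group (30.0%, 8.59% and 3.93%). Pfkp (29.8, 21.9 and 40.7%) and Slc2a3 (49.5, 26.4 and 56.3%) were instead highest in adjacent tissue 3, which had the least, and Eno2 in adjacent tissue 2. Pygm was above the limit for dim signals only in adjacent tissue 2, and Aldoc was dim on all 3, so its order there cannot be read.

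Pfkm likewise stood at 55.5, 66.3 and 52.5% in tumors, where the marker sum spanned 2.23% to 64.7%. Skeletal muscle markers (13 measured, with Myh4 and Myl11 dim on all arrays) summed to between 2635 and 15691 in tumors, 3644 and 4839 in adjacent tissues and 16589 and 24387 in normal bladders. Of them, 3 were lower in tumors and 6 in adjacent tissues (23.1% and 46.2%, beside 9.95% and 11.5% of all genes). Among 8 neuron and Schwann cell markers, 4 were lower in tumors and 5 in adjacent tissues, including the neuronal genes Nefl and Stmn2, and 1, the myelin gene Mbp, was higher in both. The sum over the 8 ranged from 3995 to 6001 in tumors, from 2452 to 4945 in adjacent tissues and from 5406 to 5907 in normal bladders. In tumors and adjacent tissues it was carried mainly by Uchl1 and Mbp, the brightest of the 8 on each array. Uchl1 was 11.08, 11.80 and 11.54 in tumors against 11.21, 11.30 and 11.13 in normal bladders (log2). Nefl was 6.23, 4.47 and 3.44 against 9.89, 10.11 and 10.05. The part of muscle and nerve in the lower isoforms was not tested.

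**Figure D4:**
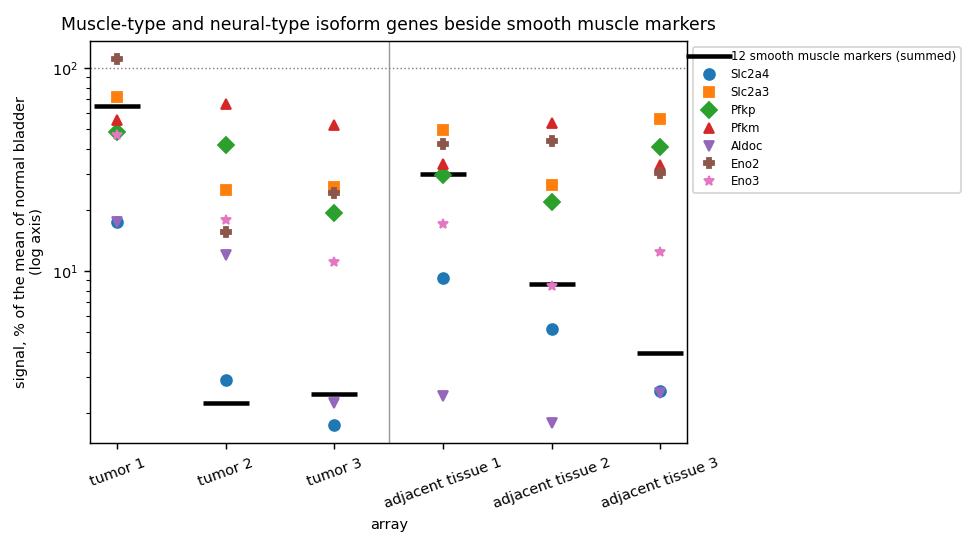
Linear signal as a percentage of the mean of the 3 normal bladders (y axis, log axis) on the 3 tumor and 3 adjacent tissue arrays (x axis), for 7 isoform genes (symbols) and for the sum of 12 smooth muscle markers (black bars). The bar stands at 64.7% in tumor 1 and at 2.23% and 2.47% in tumors 2 and 3, while Pfkm stays between 52.5% and 66.3% in all 3.

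Most markers of leukocytes, basal epithelium and dividing cells were higher than in normal bladder, and no umbrella cell marker was. Of all genes, 13.6% were higher and 9.95% lower in tumors, and 13.3% and 11.5% in adjacent tissue. Of 10 leukocyte markers, 6 were higher in tumors and 7 in adjacent tissues than in normal bladder. Their sum ranged from 16922 to 37100 in tumors, 20131 to 76606 in adjacent tissues and 6352 to 8073 in normal bladders (Cd79b was dim throughout). Its largest signals in adjacent tissue 3 were S100a9, S100a8 and Lyz2 (14.76, 14.29 and 13.85, log2). In tumors, Cd3e and Itgam overlapped with normal bladder. Of 6 basal epithelial markers, 5 were higher in each, with sums of 33890 to 45840, 30042 to 56898 and 3778 to 4090. All 8 markers of dividing cells were higher in both, with sums of 2278 to 5232 in tumors, 1945 to 4808 in adjacent tissues and 493 to 679 in normal bladders. Of 5 umbrella cell markers, 2 were lower in tumors and 1 in adjacent tissues, with sums of 29179 to 41818, 22904 to 45705 and 44705 to 47622. For dividing cells, basal cells and leukocytes, the sums of adjacent tissues overlapped with those of tumors. Their part in the higher glycolytic signals was not tested.

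Endothelial markers, 5 in number, were higher for 2 genes in tumors and 3 in adjacent tissues (40% and 60%, beside 13.6% and 13.3% of all genes). The list did not move as one. Pecam1 was 8.93, 8.75 and 8.28 in adjacent tissues against 9.34, 9.16 and 9.38 in normal bladders (log2). Tek was 10.28, 10.15 and 9.58 against 10.30, 10.39 and 10.30. Both lay below every normal bladder there, though neither was called lower. The sums of the 5 markers were 4825 to 6152, 4479 to 5677 and, in normal bladders, 3720 to 4156. None of 7 adipocyte markers was called in either (sums of 9170 to 22227, 11116 to 13237 and 11017 to 13561, with Lep dim throughout). The brightest of the 7 on every array was Fabp4, and the median change over the 7 was -0.97 in tumors and -1.47 in adjacent tissues on the log2 scale. Of 4 red cell markers, 1 was lower in tumors and 3 in adjacent tissues, with sums of 4625 to 17054, 1968 to 3918 and 10371 to 15772.

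Between tumors and adjacent tissues no gene of the 40 was called, nor was any of the 14217 (0%). At an unadjusted p under 0.05, limma had 3 of the 40 genes higher and 0 lower in tumors (1.59% and 1.06% of all genes), and the methods' t-test likewise 3 and 0. The smallest p was that of Pdk4, whose tumors at 10.15, 11.16 and 10.77 lay above the adjacent tissues at 9.17, 9.69 and 8.81. The difference was 1.47 ± 0.32 (SE, limma adjusted p = 0.9997). A second probe set of Pdk4 gave 6.25, 7.06 and 6.69 in tumors and 5.49, 6.35 and 5.93 in adjacent tissues, with overlap. Next by limma came Pdk2 at 0.94 ± 0.29 and Ldhb at 0.65 ± 0.25, both without overlap, and Pfkm at 0.57 ± 0.26 with overlap, and all 3 had the same adjusted p. In all, 6 genes did not overlap, each higher in tumors (4.1% of all genes were higher and 2.96% lower in this way), the others being Gpi, Gpd1 and Aldoa.

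Of the 16 isoform ratios, 2 did not overlap between tumors and adjacent tissues. Pdk1 to Pdk2 came to 0.62, 1.33 and 1.22 in tumors, below 2.41, 1.58 and 1.98 in adjacent tissues, a difference of -0.93 ± 0.33 (SE). Pdk1 to Pdk4 came to -1.08, -2.09 and -1.45 in tumors, below 0.19, -0.62 and 0.20 in adjacent tissues, a difference of -1.46 ± 0.40. Each lay toward the second gene, with an exact permutation p of 0.1 and an adjusted p of 0.727. With the probe sets of each gene averaged, Pdk1 to Pdk4 stayed apart and Pdk1 to Pdk2 overlapped. The transporter ratio Slc2a1 to Slc2a4 differed by 0.64 ± 1.47 and Eno1 to Eno3 by -0.27 ± 0.95, both with overlap. The count of 2 pairs, which leaving out an array can only keep or raise, was 5 without tumor 1 or adjacent tissue 1, and 4 without tumor 3, adjacent tissue 2 or adjacent tissue 3. In simulated data of the same size, 200 of 31042 probe sets were changed. For this comparison limma recovered 3 of 100 probe sets changed 2-fold and 42 of 100 changed 4-fold. With so few changed, differences of that order would often be missed.

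The rest of the pathway was read from lists of other genes. Of 20 other glycolysis genes measured, 3 were higher and 2 lower in tumors than in normal bladder, and 1 was higher and 1 lower in adjacent tissue. In tumors these shares, 15% and 10%, are close to the 13.6% and 9.95% of all genes, and in adjacent tissue, at 5% each, they are below the 13.3% and 11.5% of all genes. Slc2a6, a lysosomal hexose transporter, rose by 2.10 ± 0.38 in tumors and 2.83 ± 0.48 in adjacent tissue (log2, SE, adjusted p = 0.0132 and 0.0066), with 2 normal bladders dim, and Minpp1, an inositol phosphate phosphatase, by 0.72 ± 0.15 in tumors (adjusted p = 0.0187). Slc16a7, the pyruvate and lactate carrier MCT2, changed by -3.73 ± 0.65 in tumors and -3.17 ± 0.57 in adjacent tissue (adjusted p = 0.0117 and 0.00855), and Galm, galactose mutarotase, by -1.25 ± 0.16 in tumors (adjusted p = 0.0052). The list's median change in tumors was 0.08, near that of all genes (0.05).

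Of 9 other genes around pyruvate dehydrogenase, 2 were higher in tumors and 1 in adjacent tissue, and none was lower, which makes 22.2% and 11.1% higher beside 13.6% and 13.3% of all genes. Pdk3, a further kinase, rose by 1.01 ± 0.15 in tumors and 0.98 ± 0.16 in adjacent tissue (adjusted p = 0.0079 and 0.0065), and Pc, pyruvate carboxylase, by 0.98 ± 0.16 in tumors (adjusted p = 0.00996). Of 12 other glycogen genes, 2 were higher and 3 lower in tumors, and 2 were higher and 6 lower in adjacent tissue. The lower genes make 25% and 50%, beside 9.95% and 11.5% of all genes, and the higher ones 16.7% in each. Gpd2, the mitochondrial glycerol phosphate dehydrogenase, rose by 1.74 ± 0.19 and 1.72 ± 0.20 (adjusted p = 0.00343 and 0.00186). Pygb, the brain phosphorylase, changed by -1.66 ± 0.32 and -1.37 ± 0.25 (adjusted p = 0.0156 and 0.00923), the direction of Pygm and opposite to Pygl. Phosphorylase kinase was split, with the subunit genes Phkg2 at 0.73 ± 0.12 and Phkb at -0.99 ± 0.15 in tumors (adjusted p = 0.00933 and 0.00722).

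In the pentose phosphate branch, 2 of 5 other genes were higher in tumors and 3 in adjacent tissue (40% and 60%, beside 13.6% and 13.3% of all genes). Taldo1, transaldolase, rose by 1.45 ± 0.16 and 1.35 ± 0.14 (adjusted p = 0.00336 and 0.00117), and H6pd, the hexose phosphate dehydrogenase of the endoplasmic reticulum, by 1.34 ± 0.17 and 1.20 ± 0.20 (adjusted p = 0.00507 and 0.00629). Of 21 other hypoxia genes, 5 were higher and 2 lower in tumors, and 3 were higher and 2 lower in adjacent tissue. Higher genes made 23.8% in tumors and 14.3% in adjacent tissue, and lower genes 9.52% in each, beside 13.6% and 13.3% of all genes higher and 9.95% and 11.5% lower. Angptl4, a lipase inhibitor that hypoxia raises, rose by 2.24 ± 0.28 in tumors and 1.91 ± 0.28 in adjacent tissue (adjusted p = 0.00469 and 0.00372), and the angiogenic factor Vegfa by 1.52 ± 0.27 and 1.33 ± 0.27 (adjusted p = 0.0128 and 0.0136). The collagen prolyl hydroxylase P4ha1 changed by -1.03 ± 0.27 and -1.18 ± 0.18 (adjusted p = 0.0382 and 0.00424). Plod2 had the largest fall of the list in adjacent tissue, at -1.56 ± 0.32 (adjusted p = 0.0136). Arnt, the HIF partner subunit, was among the lower calls in tumors but was dim in both groups and has no fold here. The median change of the list in tumors was -0.18. No gene of these 5 lists was called between tumors and adjacent tissues.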

How the data were processed

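RNA of 3 tumors, 3 adjacent tissues and 3 normal bladders was labelled by the authors with a 3′ in vitro transcription kit and scanned on Affymetrix arrays of 31099 probe sets. The deposited values are log2 signals that the authors normalized with MAS5, and no further scaling was applied. Array controls (57) were left out. The platform annotation names 1 gene for 20826 probe sets, several for 436 and none for 9780. Pairs of groups were fitted separately with limma 3.58.1 (R 4.3.3, eBayes with the trend option), with Benjamini-Hochberg adjustment over 31042 probe sets and a threshold of 0.05. Isoform ratios were compared by exact two-sided permutation tests. A fold against a group whose 3 arrays are all under a signal of 50 is a lower bound, the mean of the other group over 50. The study's statistics section names Student's test of means, which is called the methods' t-test and was run as an alternative.

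The genes, lists, pairs and limit for dim signals were chosen with earlier results of these data known. Every listed gene is described, and is called changed only past the threshold. Between tumors and adjacent tissues the 4 smallest p-values are named as well, and of the other pathway lists the 2 largest rises and falls past the threshold. Cell type lists are given mainly by counts and sums. Alternatives were quantile normalization, median centring, a filter at the 40th percentile of signal, 50 added before log2, no variance trend, 1 fit of all 9 arrays, a replicate block, the methods' t-test, averaging the probe sets of a gene, and leaving out each array. Scripts were tested on simulated data. In the simulation, 200 of 31042 probe sets were changed per comparison, all with a mean log2 signal over the limit for dim. Between tumors and normal bladders, limma recovered 19 of 100 probe sets changed 2-fold and 71 of 100 changed 4-fold. Between adjacent tissues and normal bladders it recovered 21 and 56 of 100. Far larger shares of the deposited genes were called in these comparisons, 13.6% higher and 9.95% lower in tumors and 13.3% and 11.5% in adjacent tissue. The adjusted threshold depends on that share, so these recovery rates do not carry over to the deposited data. The number of arrays limits the precision. Between arrays of 1 group, the SD had a median of 0.76 for probe sets at log2 4 to 5, against 0.20 for those at 9 to 10. Promoter sequences are from RefSeq (GRCr8), which had an entry for 36 of the 41 genes. Many glycolytic genes have processed pseudogenes whose transcripts could add to a probe set.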

Additional observations from a re-analysis of the deposited data

How the results depend on the processing

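No called gene and no separated isoform pair changed direction under the alternatives run. Median centring moved the median of all genes from 0.05 to 0.26 in tumors and from 0.01 to 0.21 in adjacent tissue (log2, against normal bladder). It gave 16 higher genes in place of 9 in adjacent tissue, beside 21.2% in place of 13.3% of all genes. Without a variance trend, 9 genes were higher and 2 lower in tumors (5.38% and 3.89% of all genes). In adjacent tissue 3 were then higher (6.35% of all genes). The methods' t-test after adjustment called 7 higher and 1 lower in tumors (4.93% and 2.64% of all genes). In adjacent tissue it called 3 higher and 5 lower (6.08% and 4.33% of all genes). With all probe sets of a gene averaged, 1 isoform pair, Pdk1 to Pdk4, separated tumors from adjacent tissues. With the probe sets averaged, the tumor calls of Slc2a3, Pfkm, Pfkfb3, Pgk1 and Ndrg1 and the adjacent tissue calls of Pfkm, Pgk1 and Ndrg1 were lost, and with 50 added the Aldoa/Aldoc, Hk2/Hk1 and Pygl/Pygm ratios moved toward 0. Other alternatives kept each count within 1.5 times. Leaving out 1 array gave 7 to 19 higher and 0 to 10 lower genes and 10 to 14 separated pairs in tumors, and 3 to 11 higher, 7 to 12 lower and 9 to 12 pairs in adjacent tissue. Between tumors and adjacent tissues it gave 0 higher, 0 lower and 2 to 5 pairs. A count of separated pairs can only stay or rise when an array is left out. The lowest counts came without 1 normal bladder: 7, 7 and 8 higher and 0 lower in tumors without normal bladder 1, 2 or 3, and 3 higher and 7 lower in adjacent tissue without any 1 of them. Without tumor 2 or 3, 5 or 4 genes were lower in tumors (6.71% or 4.94% of all genes).

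Tumors and adjacent tissues came from the same rats, but the labels do not tie their numbers to a rat. The deviations of same-numbered arrays correlated at 0.24, 0.044 and 0.137, and tumor 2 correlated best with adjacent tissue 3 (0.106). With the number as a replicate block, 0 genes were higher and 0 lower between tumors and adjacent tissues. Against normal bladder, 13 were higher and 7 lower in tumors (8.88% and 6.89% of all genes), and 9 and 10 in adjacent tissue (10.3% and 9.88%). The normal bladders came from separate rats, so the number cannot tie their arrays to those of tumor-bearing rats, and the block is no pairing there. Signals under 50 carry little order, which limits Aldoc, Pygm, Slc2a4 and Hk2.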
